A study of Mus musculus with 17 samples.

Results

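The 10 genes Fosl1, Dusp4, Dusp6, Spred1, Spred2, Spry1, Spry2, Spry4, Etv4 and Etv5, which report or restrain signalling from Ras through the MAP kinase ERK, were followed across mammary tumours of Myc T58A mice. They were chosen by name, with earlier results of these data known. Of these 10 genes, 9 had a probe set among the 12393 genes measured and Dusp4 had none, so 9 members are described. Each gene is given by its probe set with the highest mean over the 17 arrays. RNA from each tumour was hybridised to 1 Affymetrix mouse array. The mice were of the FVB strain, and the oncogene in every tumour, Squamous ones included, was Myc T58A, a stabilised mutant form of Myc. Its driver, the MMTV promoter, works mainly in epithelial cells of the gland. The series calls them low expressing. The histology labels divide them into 6 EMT tumours (for epithelial-mesenchymal transition), 1 Papillary, 1 Microacinar and 9 Squamous. The numbers after a label tell tumours apart and carry no order. Ages are not given in the sources used here.

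Growth factor receptors switch on Ras proteins, which start a kinase cascade of Raf, MEK and ERK. Active ERK induces transcription factors such as Fosl1, Etv4 and Etv5, and it also induces its own brakes: Dusp6 removes phosphate from ERK in the cytoplasm, Spred proteins help to inactivate Ras, and Sprouty (Spry) proteins damp signalling from receptors to Ras. In mammary epithelium this pathway drives growth and branching, and the RNA levels of these genes are widely used as a readout of pathway output.

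Promoters of Dusp6, Spred1 and Spred2 are shown. The 3 pairs among them passed the test by Pearson r, though not by Spearman rho, across Squamous tumours. The 3 pairs among Dusp6, Spred1 and Spry2 did so too, and the Spry2 window held no match. The correlations therefore do not single out the genes shown, and no link between them and the letters below was tested. The sequences are the 250 bases before the annotated start, from RefSeq (GRCm38.p6), written 5′ to 3′ on the gene's strand, which is the plus strand for all 3. Dusp6 lies at chr10:99262981-99263230, Spred1 at chr2:117120821-117121070 and Spred2 at chr11:19924192-19924441. Capitals mark CGGAAG or its reverse complement, a core recognised by ETS factors, the family of Etv4 and Etv5.
Dusp6: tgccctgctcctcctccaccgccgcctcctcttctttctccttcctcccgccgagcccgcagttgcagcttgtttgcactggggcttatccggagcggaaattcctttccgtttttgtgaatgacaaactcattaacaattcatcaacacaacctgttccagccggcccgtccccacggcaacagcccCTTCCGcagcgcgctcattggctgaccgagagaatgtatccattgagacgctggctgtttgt
Spred1: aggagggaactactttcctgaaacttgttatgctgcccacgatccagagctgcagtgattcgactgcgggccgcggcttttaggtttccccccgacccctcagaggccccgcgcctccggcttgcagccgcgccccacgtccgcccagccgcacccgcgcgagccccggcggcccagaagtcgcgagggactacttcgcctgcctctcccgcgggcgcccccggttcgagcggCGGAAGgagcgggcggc
Spred2: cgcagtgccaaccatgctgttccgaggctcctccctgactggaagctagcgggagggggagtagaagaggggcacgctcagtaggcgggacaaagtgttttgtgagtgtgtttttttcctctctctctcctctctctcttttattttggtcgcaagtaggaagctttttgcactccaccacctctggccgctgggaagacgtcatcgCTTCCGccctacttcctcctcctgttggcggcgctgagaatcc
Each of these windows held 1 match, which began 62 bases before the start in Dusp6, 17 in Spred1 and 43 in Spred2. The letters were picked after the windows had been read, and 13.6% of the 32851 windows of this length held them on either strand. The windows of Spry1, Spry2 and Etv5 held none, and Fosl1, Etv4 and Spry4 were not searched. The AP-1 letters TGANTCA, searched on both strands, which Fosl1-containing dimers bind, were in none of the windows of these 6 members and in 6.75% of all windows. The cyclic AMP response letters TGACGTCA were also in none of the windows of the 6 members and in 1.55% of all. A match describes letters only.

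Array medians lay between 7.23 and 7.40 on the log2 scale. By their titles, 3 arrays (EMT 5, EMT 6 and Squamous 9) are marked TM, and the other 14 have numbers only. The TM arrays stood apart: the SD over their probe sets was 2.46 to 2.51, while numbered arrays had 2.25 to 2.29. Of the 20380 probe sets with 1 gene symbol, 2564 held exactly the same value on all 3 TM arrays. No probe set of a member was among them. Such equal values enter the fits and the shares of all genes, and how they arose was not tested. At a limma adjusted p under 0.05, 40.4% of genes differed between the formats. The title format was therefore a term of the model, and values without the TM arrays stand beside each member's result. Squamous 7 and Squamous 8 share a title number, and so do Squamous 5 and the Microacinar tumour. The labels do not say which tumours came from separate animals, so p-values measure the spread between these tumours only, which may be technical. Epithelial markers were high in most tumours but not in all. The adhesion protein Cdh1 stood at 11.84 to 12.09 in EMT 1 to EMT 3. In the remaining EMT tumours (4, 5 and 6, in that order) Cdh1 was 7.19, 8.10 and 7.04, whereas the Squamous range was 11.13 to 11.97. Of these, only EMT 4 has a numbered title, so low Cdh1 and the TM format can hardly be told apart among EMT tumours. For Myc the EMT mean was 10.37 ± 1.15 (SD, n = 6) and the Squamous mean 11.09 ± 1.01 (SD, n = 9), a log2 fold change of −0.51 (SE 0.53, limma adjusted p = 0.685).

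EMT and Squamous are the 2 histologies with replicates, and the question put to them here is whether pathway output genes differ in level. All 9 members had a log2 fold change above 0, EMT minus Squamous, as did 51.8% of all genes. Their median was 0.55, against 0.01 over all genes. After Benjamini-Hochberg adjustment over all genes in limma, 0 of 9 members passed 0.05, and so did 0% of all 12393 genes, whose smallest adjusted p was 0.0982. At an unadjusted limma p under 0.05, 6 of 9 members were higher in EMT and 0 were lower, beside 8.08% of all genes higher and 6.27% lower. The 6 were Fosl1, Dusp6, Spred1, Spred2, Spry2 and Etv5. With array weights the count was 3 of 9, beside 5.61% of all genes, and among numbered arrays it was 5 of 9, beside 5.30%.

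**Figure D1:**
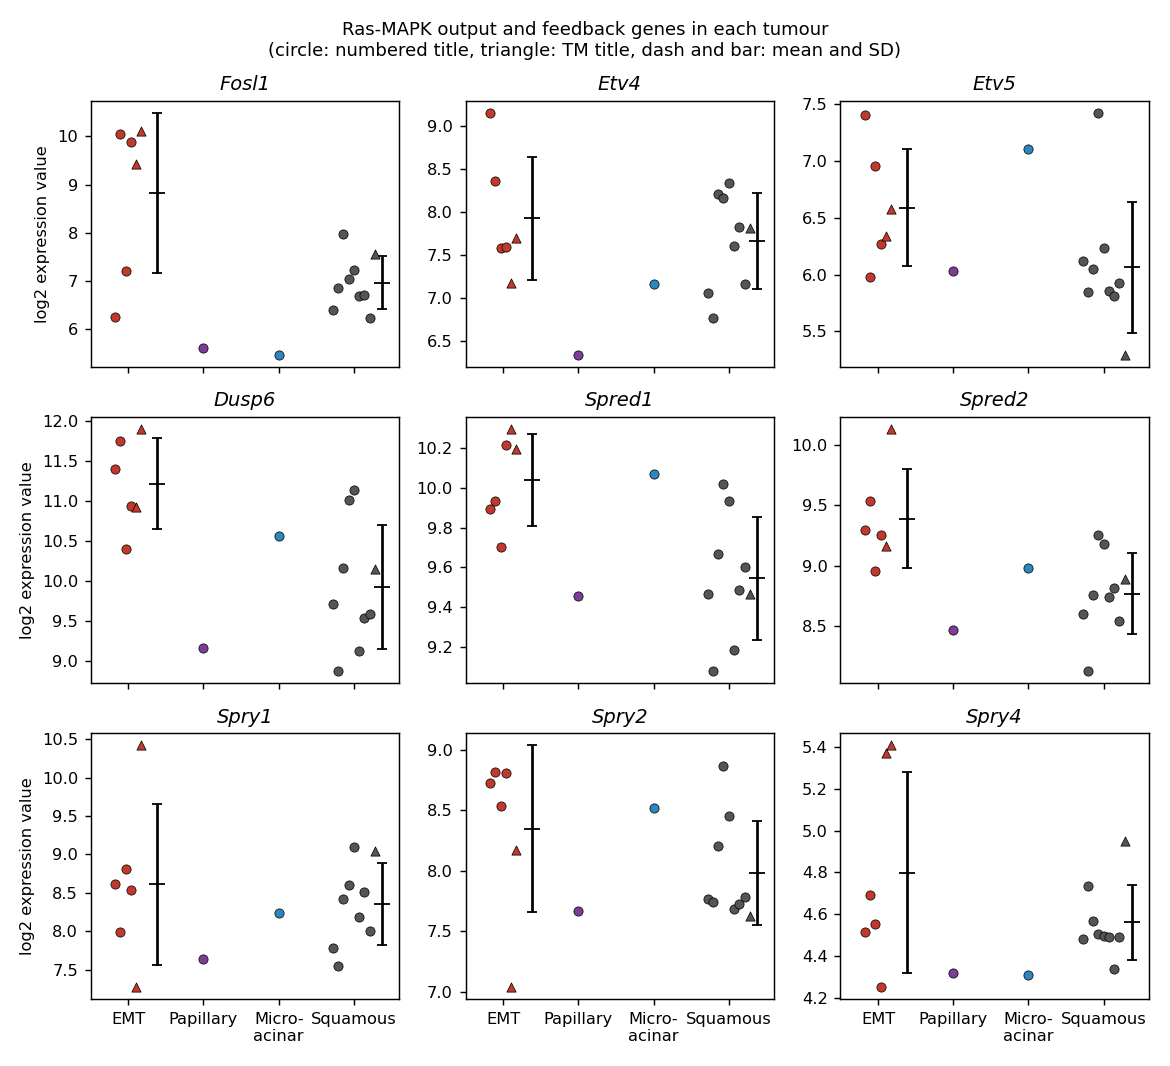
Log2 expression value of each of the 9 genes (y axis, a separate scale for each gene) in 6 EMT, 1 Papillary, 1 Microacinar and 9 Squamous tumours, 1 point per tumour; the dash and bar give the mean and SD of EMT and of Squamous tumours. Fosl1 splits the EMT tumours, with 4 of 6 above every Squamous tumour, while Dusp6, Spred1 and Spred2 sit high in EMT as a whole and overlap with the highest Squamous tumours.

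Among the transcription factors, Fosl1 (Fra-1, a partner of Jun in AP-1 dimers) had the largest fold change of the members in the fit of all 15 tumours, though not with array weights or without EMT 4. Its values were 6.26, 10.05, 7.21, 9.90, 9.43 and 10.11 in EMT 1 to EMT 6. In the 9 Squamous tumours Fosl1 had a lowest value of 6.24, a median of 6.85 and a highest value of 7.98. EMT 2, EMT 4, EMT 5 and EMT 6 lay above every Squamous tumour, and EMT 1 and EMT 3 lay inside the Squamous range. The log2 fold change of Fosl1 was 1.61 (SE 0.55, limma adjusted p = 0.238), a fold of 3.04. It was 1.46 (SE 0.65) among numbered arrays, 0.93 with array weights (Dusp6 1.06), 1.24 without EMT 4 (Dusp6 1.28) and 2.17 without EMT 1. The spread in EMT (SD 1.66, n = 6) exceeded that in Squamous tumours (SD 0.56, n = 9). High Fosl1 did not follow low Cdh1 in every tumour: EMT 2 had a Cdh1 value of 12.09 with a Fosl1 value of 10.05. A second Fosl1 probe set, at a mean level of 5.43, gave 1.28 (SE 0.39), and its Pearson r with the first over the 17 arrays was 0.96, which describes 2 readings of the same RNA.

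Etv4 and Etv5, ETS factors induced downstream of receptor kinases, had smaller fold changes. Etv4 was 9.15, 8.36, 7.58, 7.59, 7.17 and 7.69 in EMT 1 to EMT 6, against 6.77 to 8.34 with a median of 7.81 in Squamous tumours. EMT 1 had the highest Etv4 of the 17 tumours, and EMT 3 to EMT 6 lay within the Squamous range. Its log2 fold change was 0.35 (SE 0.33, limma adjusted p = 0.649), 0.53 (SE 0.37) among numbered arrays and 0.07 without EMT 1. Etv5 was 7.41, 5.98, 6.95, 6.27, 6.34 and 6.58 in EMT 1 to EMT 6, against 5.29 to 7.43 with a median of 5.93 in Squamous tumours. The groups overlapped: Squamous 4 held the highest Etv5 value of all, and EMT 2 lay below Squamous 1, Squamous 3 and Squamous 5. The log2 fold change of Etv5 was 0.63 (SE 0.28, limma adjusted p = 0.334), and 0.49 (SE 0.32) among numbered arrays. The other Etv5 probe set gave 0.93 (SE 0.40).

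Dusp6, the cytoplasmic ERK phosphatase, was 11.40, 11.75, 10.40, 10.94, 10.92 and 11.90 in EMT 1 to EMT 6. In Squamous tumours Dusp6 had a lowest value of 8.88, a median of 9.72 and a highest value of 11.14. EMT 1, EMT 2 and EMT 6 lay above every Squamous tumour, and 7 of 9 Squamous tumours lay below the lowest EMT tumour. The 2 others, Squamous 4 and Squamous 5, had Dusp6 values of 11.02 and 11.14. Its log2 fold change was 1.23 (SE 0.37, limma adjusted p = 0.211), a fold of 2.35, and 1.22 (SE 0.43) among numbered arrays. The difference between the mean of the 2 TM EMT tumours and the TM Squamous tumour was 1.25. Unlike Fosl1, Dusp6 was not lower in EMT 1, at 11.40, than in EMT 4 or EMT 5.

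Spred1 and Spred2, which bring neurofibromin to the membrane to inactivate Ras, had smaller fold changes and little spread. Spred1 was 9.90, 9.93, 9.70, 10.22, 10.30 and 10.20 in EMT 1 to EMT 6, against 9.08 to 10.02 with a median of 9.49 in Squamous tumours. All 3 EMT tumours with low Cdh1 lay above the Squamous range, and 7 of 9 Squamous tumours lay below the lowest EMT tumour. In EMT 4, EMT 5 and EMT 6, 19.6%, 27.1% and 26.8% of all genes lay above that range. The log2 fold change of Spred1 was 0.46 (SE 0.15, limma adjusted p = 0.231), and 0.38 (SE 0.17) among numbered arrays. Its other probe sets each gave 0.59 (SE 0.18 and 0.25). Spred2 was 9.29, 9.53, 8.96, 9.26, 9.16 and 10.13 in EMT 1 to EMT 6, against 8.13 to 9.25 with a median of 8.76 in Squamous tumours. In EMT 1, EMT 2, EMT 4 and EMT 6 it lay above the Squamous range, by the least in EMT 4. Its log2 fold change was 0.56 (SE 0.19, limma adjusted p = 0.238), and 0.51 (SE 0.19) among numbered arrays. A second Spred2 probe set sat at a mean of 5.92 with values of only 5.76 to 6.16 and gave 0.07 (SE 0.05), so the mean of both gave 0.31.

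The Sprouty genes did not share 1 pattern. Spry1 had a lowest value of 7.27, a median of 8.58 and a highest value of 10.42 in EMT tumours, against 7.55 to 9.09 with a median of 8.42 in Squamous tumours. The TM arrays EMT 5 and EMT 6 held the lowest and the highest Spry1 of all tumours. The log2 fold change of Spry1 was 0.14 (SE 0.40, limma adjusted p = 0.901), 0.22 (SE 0.26) among numbered arrays and −0.091 without EMT 6. Spry2 was 8.73, 8.81, 8.53, 8.81, 7.04 and 8.17 in EMT 1 to EMT 6, against 7.63 to 8.86 with a median of 7.77 in Squamous tumours. The 4 EMT tumours with numbered titles lay together near the top of the Squamous range, and EMT 5 lay below it. The log2 fold change of Spry2 was 0.55 (SE 0.23, limma adjusted p = 0.309), and 0.69 (SE 0.22) among numbered arrays, while the difference within TM arrays was −0.03. Spry2 was also lower on TM than on numbered arrays, by the model's term of −0.83 (limma adjusted p = 0.0298). Its second probe set, at a mean of 5.12, gave 0.15 (SE 0.07). Spry4 was below the array's lower quartile on 16 of 17 arrays, with values of 4.25 to 5.41. The TM arrays had the 3 highest Spry4 values, 5.37 and 5.41 in EMT 5 and EMT 6 and 4.95 in Squamous 9. The title format term was 0.71 (limma adjusted p = 0.000158), and the log2 fold change of 0.08 (SE 0.09) turned to −0.010 among numbered arrays. Spry4 at this level gives no order of tumours.

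**Figure D2:**
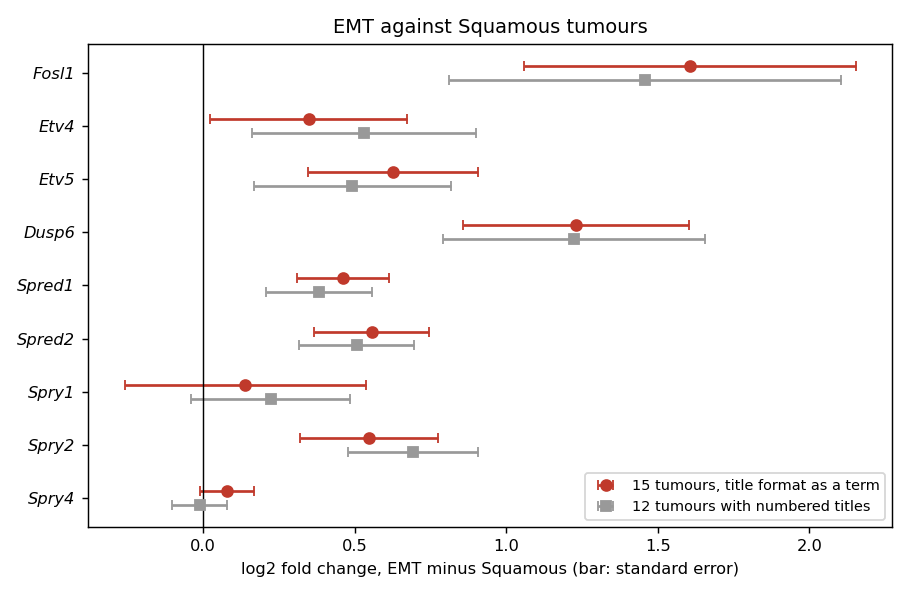
Log2 fold change, EMT minus Squamous (x axis), of each member (y axis) with its standard error, from 15 tumours with title format as a term (red) and from the 12 tumours with numbered titles (grey). Fosl1 at 1.61 and Dusp6 at 1.23 are furthest from 0, Spry1 and Spry4 are nearest to it, and Spry4 turns to −0.010 among numbered arrays.

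Different members stood out in different EMT tumours. EMT 6 had 6 of 9 members above the Squamous range, beside 26.8% of all genes, and EMT 2 had 4 of 9, beside 15.5%, among them Fosl1, Dusp6 and Spred2 in both. EMT 1 had 3 of 9 above it, which were Dusp6, Spred2 and Etv4, beside 10.1% of all genes, and EMT 3 had 0 of 9, beside 9.26%. In these 4 tumours 0 of 9 members lay below the range, where the share of all genes was 8.42% for EMT 1, 19.2% for EMT 2, 6.44% for EMT 3 and 16.9% for EMT 6. EMT 4 had 3 of 9 above the range, beside 19.6% of all genes, and 1 below it, beside 17.6%. EMT 5 had 3 of 9 above the range, beside 27.1% of all genes, and 2 below it, beside 20.1%. These counts include Spry4, which was below the lower quartile on 16 of 17 arrays and higher on TM arrays. It is counted above the range in EMT 5 and EMT 6, both TM arrays, and is the 1 member below it in EMT 4. The Papillary and Microacinar tumours have no replicate, so their values were only set beside the Squamous range. The Papillary tumour had 0 of 9 members above that range, beside 8.26% of all genes, and 3 below it, beside 8.26% of all genes: Fosl1 at 5.62, Etv4 at 6.34 and Spry4 at 4.32. The Microacinar tumour had Spred1 above the range at 10.07, 1 of 9 members beside 11.1% of all genes. Fosl1 at 5.47 and Spry4 at 4.31 lay below it, as did 10% of all genes. Fosl1 was thus lower in both than in any EMT or Squamous tumour. Dusp6 was 9.17 in the Papillary and 10.57 in the Microacinar tumour, both inside the Squamous range.

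Cell type markers were also set beside the histologies, and 0 of them passed the limma adjusted p of 0.05. At an unadjusted limma p under 0.05, 4 of 10 epithelial, 4 of 6 cornified, 2 of 4 neutrophil, 2 of 3 B cell and 1 of 3 adipocyte markers were lower in EMT. Of mitosis markers 4 of 5 were higher, and of mesenchymal markers 1 of 8. All other marker lists, fibroblast included, had 0 either way. Of all genes 8.08% were higher and 6.27% lower. The mean of the 10 epithelial markers ranged from 6.45 to 12.18 in EMT and from 10.79 to 12.10 in Squamous tumours, with a log2 fold change above 0 in 1 of 10. The mean of the 8 mesenchymal markers was 8.08 to 9.91 in EMT and 7.06 to 9.06 in Squamous tumours, above 0 in 8 of 8. The mean of the 8 fibroblast markers was 10.70 to 13.03 in EMT and 9.15 to 12.34 in Squamous tumours, above 0 in 7 of 8. The mean of the 6 cornified markers was 4.75 to 8.36 in EMT and 5.64 to 11.95 in Squamous tumours, above 0 in 1 of 6. The mean of the 6 basal keratinocyte markers was 5.42 to 12.66 in EMT and 8.46 to 11.30 in Squamous tumours, above 0 in 1 of 6. The mean of the 5 mitosis markers was 9.39 to 10.27 in EMT and 8.43 to 9.46 in Squamous tumours, above 0 in 5 of 5. The mitotic kinases Cdk1 and Aurka lay above every Squamous tumour in 6 of 6 EMT tumours, as did 0.153% of all genes. Plk1 and Mki67 did so in 3 of 6 EMT tumours each, and Top2a in 1 of 6. No marker was at 0 on this scale, but no probe set could be, since the lowest value of each array was 2.47 to 3.23. This does not show that each marker was expressed. The 3′ minus 5′ difference of the beta-actin control, which is higher in less intact RNA, was 0.44 to 0.82 in EMT and 0.62 to 0.96 in Squamous tumours. The part of these differences in the members' values was not tested, and in bulk tumours fewer cells of a type and less RNA per cell cannot be told apart.

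Among the 9 Squamous tumours some pairs of members were correlated. Pearson r and Spearman rho were computed for all 36 pairs of members with exact two-sided permutation of pairings and Benjamini-Hochberg adjustment over the pairs. By r, 10 of 36 pairs passed 0.05, all positive, and by rho 2 did. Pairs of other genes were not tested in these tumours. The count therefore does not show that the members covary more than other genes do. Dusp6 and Spred1 had the highest r, 0.94 (exact permutation p = 0.000692, adjusted p = 0.00830), with a rho of 0.85 (exact permutation p = 0.00607, adjusted p = 0.0547). This pair passed with any 1 of the tumours left out. By r, Dusp6 also passed with Spred2 (r = 0.88, rho = 0.77), Spry2 (r = 0.83, rho = 0.67) and Etv4 (r = 0.79, rho = 0.78), with exact permutation adjusted p values of 0.0154, 0.0286 and 0.0442 for r and of 0.0856, 0.141 and 0.0775 for rho. Spred2 was called with Spry1 by both measures (r = 0.85, exact permutation p = 0.00377, adjusted p = 0.0194, and rho = 0.93, exact permutation p = 0.000750, adjusted p = 0.0270), and its r call ended without Squamous 2 and without Squamous 5. The other pair called by both was Spry2 with Etv5 (r = 0.88, exact permutation p = 0.000537, adjusted p = 0.00830, and rho = 0.90, exact permutation p = 0.00203, adjusted p = 0.0365), and its r call ended without Squamous 4 (r = 0.68). Fosl1 and Spry4 were in no called pair. The r of Fosl1 with Dusp6 was 0.46 (exact permutation p = 0.209, adjusted p = 0.343), with a rho of 0.57 (exact permutation p = 0.121, adjusted p = 0.217).

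**Figure D3:**
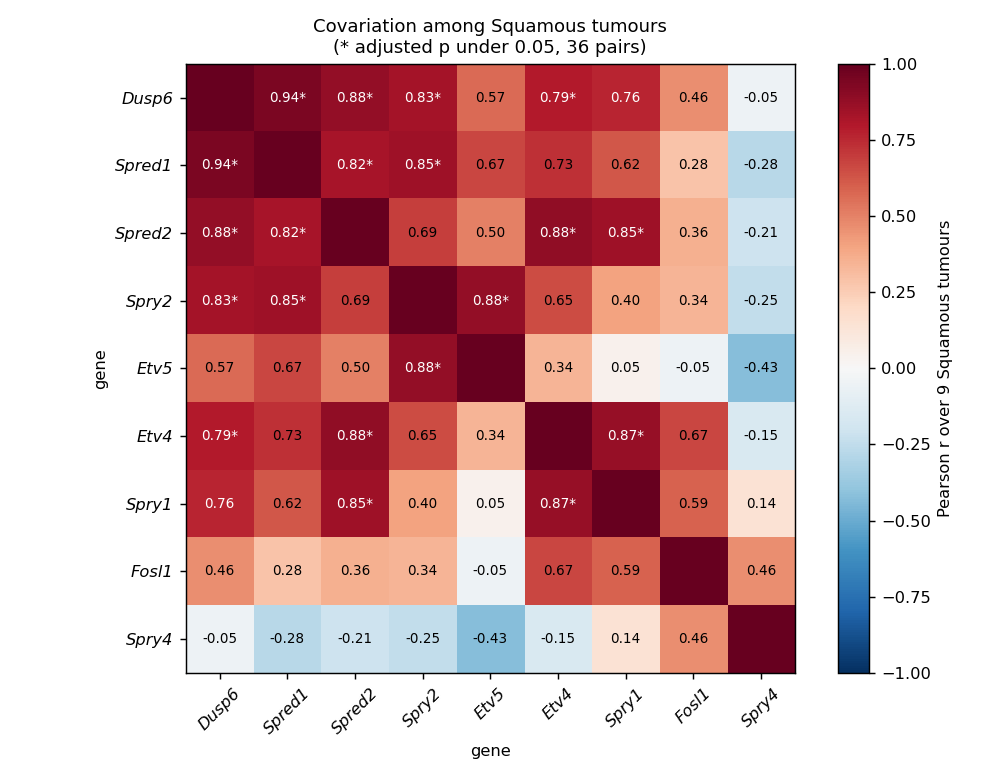
Pearson r between each pair of members over the 9 Squamous tumours, genes on both axes, red for positive and blue for negative; a star marks an adjusted p under 0.05. Among Dusp6, Spred1, Spred2 and Spry2 r is 0.69 to 0.94, and Spred2 with Spry2, at 0.69, has no star. With Etv4 in place of Spry2 it is 0.73 to 0.94, and Spred1 with Etv4, at 0.73, has no star. Fosl1 and Spry4 have no star.

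The number of pairs that passed depended on 3 tumours. Squamous 4 and Squamous 5 had the highest Dusp6, Spred1 and Spred2 of the label, and Squamous 2 had the lowest. The count of called pairs was 3 without Squamous 2, 3 without Squamous 4 and 3 without Squamous 5, and it was 12 without the TM array Squamous 9. With the 2 tumours farthest from the median of the first gene left out, 0 of 36 pairs passed among the tumours that remained. The r of Dusp6 with Spred1 was then 0.85 (exact permutation p = 0.0185, adjusted p = 0.221). For the 10 called pairs, r then ranged from 0.42 in Dusp6 with Spry2 to 0.90 in Spred2 with Spry1. Some were thus about as large as before, while Dusp6 with Spry2 and Spry2 with Etv5 (r = 0.55) were smaller.

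The genes whose pattern was most like each member were found from the residuals of the model over the 15 EMT and Squamous tumours, as a description without a test. For Dusp6 they were Spred2 (r = 0.86) and Bcar3 (r = 0.85). For Spred2 they were Igf1r, the insulin-like growth factor receptor (r = 0.93), and Stag1 (r = 0.87). For Spred1 they were Pygl (r = 0.87) and Sh2b2 (r = 0.84). For Spry1 they were Wnt5a, a secreted Wnt ligand (r = 0.89), and Fhod3 (r = 0.88), and for Spry2 Dync1i2 (r = 0.88) and Map4k4 (r = 0.86). For Etv4 they were Eogt and Tubb3 (both r = 0.90), and for Etv5 Bid (r = 0.93) and Chrm3 (r = 0.91). For Spry4, at its low level, they were Tinag (r = 0.87) and Cyth1 (r = 0.86). For Fosl1 they were Adarb1 and Pxk (both r = 0.94), and its closest member was Spred1 (r = 0.37). Only for Dusp6 was the closest gene itself a member, and each other member had genes outside the list closer to it. The r with the closest member was 0.86 for Spred2, 0.80 for Spry2, 0.76 for Spred1 and 0.71 for Spry1 and Etv4. It was 0.44 for Etv5 and 0.14 for Spry4.

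The other genes of the pathway were counted along the route from receptor to output, and 0 of the 90 measured genes passed the limma adjusted p of 0.05. The counts that follow are at an unadjusted limma p under 0.05, beside the 8.08% of all genes that were higher and the 6.27% that were lower. Of 15 growth factor receptors 1 was higher in EMT and 4 were lower. Axl, a receptor kinase of mesenchymal cells, was 8.22 to 11.61 in EMT and 7.34 to 9.50 in Squamous tumours, with a log2 fold change of 1.00 (SE 0.45, limma adjusted p = 0.333). The lower receptors were Erbb3, Kit, Fgfr3 and Fgfr2, with log2 fold changes of −1.73, −1.27, −0.87 and −0.80. Erbb3, the kinase-poor partner of Erbb2, was 6.15, 6.42 and 6.94 in EMT 4, EMT 5 and EMT 6, and at least 10.42 in the other EMT tumours and 10.26 in Squamous tumours. Among numbered arrays Erbb3 was at −1.09 and Fgfr2 at −0.23.

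Of 13 receptor ligands 1 was higher, Btc (betacellulin), at a log2 fold change of 0.73 (SE 0.31, limma adjusted p = 0.314). Hbegf and Ereg, ligands of the EGF receptor, had larger values of 1.32 (SE 0.65) and 1.11 (SE 0.76). EMT 2 had the highest value of all tumours for both, 11.95 for Hbegf and 9.95 for Ereg, and Squamous 9 had an Ereg value of 9.33. Of 10 adaptors and Ras activators 1 was higher, Shc1, at 0.27 (SE 0.10). Gab1 and Grb2, docking and adaptor proteins, were at −0.36 and 0.22.

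Of 9 Ras proteins and GTPase activators 4 were higher and 0 lower, with a list median of 0.38. Rras2 (TC21, a Ras-related GTPase) was 9.32, 9.99, 9.47, 10.15, 10.29 and 9.95 in EMT 1 to EMT 6, against 8.69 to 9.24 in Squamous tumours. All 6 EMT tumours lay above all 9 Squamous tumours, which was so for 0.153% of all genes. Its log2 fold change was 0.81 (SE 0.16, limma adjusted p = 0.123), and 0.65 (SE 0.15) among numbered arrays. Without EMT 1 it was the 1 gene of the pathway lists past the adjusted threshold. Mras, another Ras-related GTPase, was 7.28, 8.60 and 7.97 in EMT 4, EMT 5 and EMT 6 and 5.55 to 5.63 in the other EMT tumours, against 5.33 to 5.78 in Squamous tumours. The fitted log2 difference, EMT minus Squamous, was 0.86 (SE 0.33, limma adjusted p = 0.276), and 0.43 (SE 0.27) among numbered arrays. Rasal2, a GTPase activator, was at 0.59 (SE 0.22) and Nras at 0.20 (SE 0.08).

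Of 10 genes of the Raf-MEK-ERK cascade 1 was higher, Map2k1 (MEK1), at 0.33 (SE 0.15, limma adjusted p = 0.337). Map2k2 (MEK2) was at 0.24 and Araf at −0.14. Of 11 other MAPK phosphatases and feedback inhibitors 3 were higher and 0 lower. Dusp10, a phosphatase of the stress kinases p38 and JNK, was 6.30, 8.23, 6.62, 6.97, 8.33 and 7.94 in EMT 1 to EMT 6, against 5.48 to 6.58 in Squamous tumours. In 5 of 6 EMT tumours it lay above the Squamous range, and its log2 fold change was 1.12 (SE 0.26), at a limma adjusted p of 0.142, and 1.01 (SE 0.30) among numbered arrays. Errfi1 (Mig6), an inhibitor of the EGF receptor, exceeded the Squamous range in 3 of 6 EMT tumours, at 0.87 (SE 0.27) and a limma adjusted p of 0.215. Dusp9 was at 0.30 (SE 0.11), and Dusp16 at −0.46 (SE 0.25). Of 22 other ERK-responsive and ETS genes 3 were higher and 0 lower: Elk3, an ETS factor, at 0.96 (SE 0.44), the cyclin Ccnd1 at 0.80 (SE 0.36) and Jun at 0.34 (SE 0.13). Mmp9, a matrix protease, was at 1.24 (SE 0.87).

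**Figure D4:**
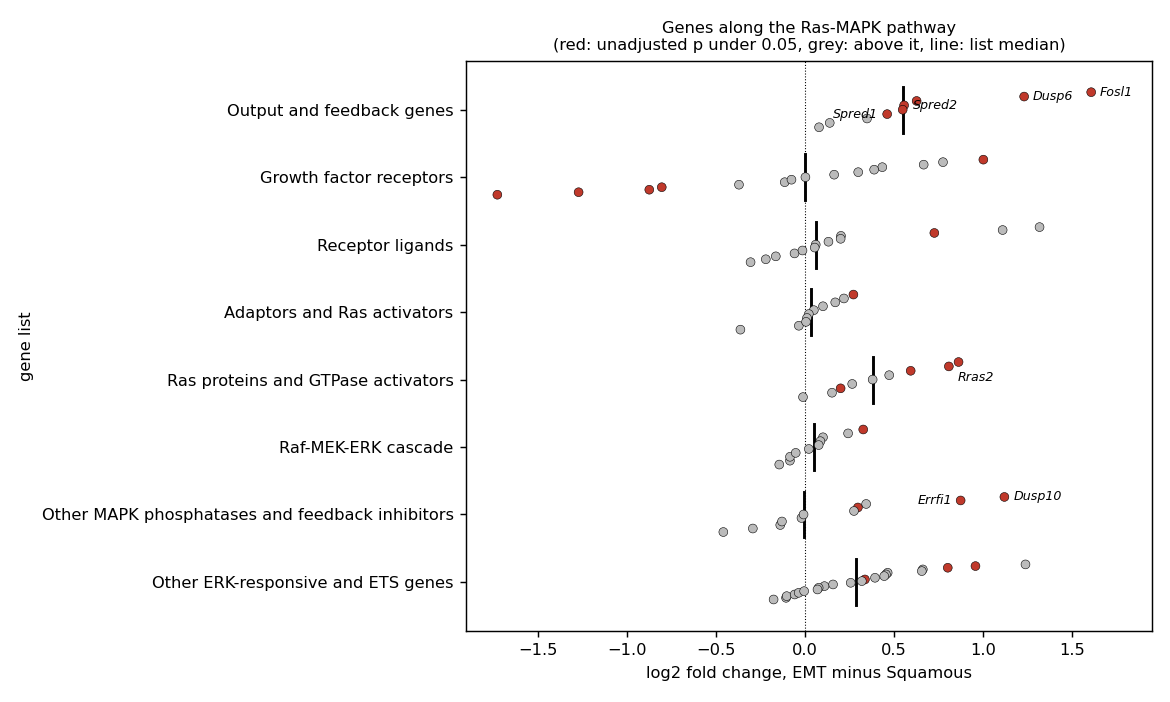
Log2 fold change, EMT minus Squamous (x axis), of each measured gene by pathway list (y axis), with the list median as a line; red points have an unadjusted limma p under 0.05, grey points do not, and genes with the smallest p are named. The output and feedback genes have a median of 0.55, the Ras proteins and GTPase activators 0.38, and the growth factor receptors spread from −1.73 to 1.00.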

How the data were processed

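The authors deposited 1 value per probe set for each of 17 arrays, taken to be log2 from its range; how they normalized is not given in the sources used here. Per the labels, biotinylated cRNA from total RNA was hybridised. The values were used as deposited. Of 22690 probe sets, 64 controls, 691 with several gene symbols and 1555 with none were left out, and 20380 gave 12393 genes, by the probe set with the highest mean. Symbols came from the platform annotation, and 20351 probe sets matched the RefSeq gene table.

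The EMT minus Squamous fit used limma (version 3.58.1, R 4.3.3) with title format as a term and a threshold of 0.05 on the Benjamini-Hochberg adjusted p over all genes. The number of arrays limits the precision. Tested on simulated data for this comparison, the fit over 12393 genes found 22 of 50 genes with a log2 change of 0.5, 36 of 50 with 1, 47 of 50 with 2 and 50 of 50 with 3, with 5 false calls. Whether these counts hold for the tumours themselves was not tested. Spread there could differ between histologies, as for Fosl1 (SD 1.66 in EMT and 0.56 in Squamous tumours). The members and gene lists were chosen with earlier results of these data known. Named genes were all members, the 3 largest fold changes of each pathway list, the 2 genes most like each member, Myc and cell type markers; counts at an unadjusted p under 0.05, and other genes past it, were added after their values were seen. Alternatives changed the title format term, arrays used, scaling, probe sets, filter, variance model, weights and tumours. Correlations used scipy 1.17.1 and figures matplotlib 3.10.9 under Python 3.11.15, with numpy 2.4.6 and pandas 2.3.3.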

Additional observations from a re-analysis of the deposited data

Results flagged for a closer look

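Of 18 groups of values (9 members in EMT and in Squamous tumours), 2 had a tumour far from the rest of its group, and chance gives about 1 in 20. Spry2, an inhibitor of receptor signalling, was 7.04 in EMT 5, the lowest of the 6 EMT tumours, where the others had 8.17 to 8.81. EMT 5 is one of the TM arrays. Etv5, an ETS factor, was 7.43 in Squamous 4, the highest of the 9 Squamous tumours, where the others had 5.29 to 6.23.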

How the results depend on the processing

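The count of genes past the adjusted threshold was 0 in every alternative fit except without EMT 1, where it was 14, so leaving out 1 tumour at a time gave 0 to 14. The count of pathway list genes past it was likewise 0 to 1. At an unadjusted p under 0.05 the main comparison had 1778 genes, against 1056 with array weights, 1064 among genes above the median level and 1162 among numbered arrays. The fit of genes above the median level tested fewer genes, with 5 members among them, so its counts cannot be set beside the others directly. The members past the adjusted threshold stayed at 0 in all of them, and those higher at an unadjusted p under 0.05 numbered 3 with array weights and 4 to 6 otherwise. The directions of Fosl1, Dusp6, Spred1, Spred2, Spry2, Etv4 and Etv5 held in every alternative in which they were fitted. The log2 fold change of Spry1 turned to −0.091 without EMT 6, and leaving out 1 tumour at a time gave −0.091 to 0.41. That of Spry4 turned to −0.010 among numbered arrays and, as the same estimate, without Squamous 9, and leaving out 1 tumour at a time gave −0.010 to 0.16. The cause was not tested. The count of correlated pairs was 10, with 2 by Spearman rho, 0 without the 2 tumours farthest from the median, where fewer tumours are left, and 3 to 12 when 1 Squamous tumour was left out, a setting that apart from Squamous 9 was chosen after seeing the data. No paired analysis was possible because the labels give no replicate numbers that tie EMT to Squamous tumours.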

Other observations

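Myc was set beside each member over the 9 Squamous tumours, together with the means of fibroblast, epithelial and mitosis markers and the beta-actin 3′ minus 5′ difference, a choice made after seeing the data. None of the 45 relations passed 0.05 by exact two-sided permutation after adjustment over the 45. The r of Myc with Dusp6 was −0.82 (exact permutation p = 0.00701, adjusted p = 0.0984), its rho was −0.83 (exact permutation p = 0.00827, adjusted p = 0.166), and r was −0.78 without the 2 tumours farthest from the Myc median. Dusp6 was not alone in this, since r with Myc was negative for all 9 members. It was −0.83 for Spry1, −0.81 for Etv4 and −0.78 for Fosl1, each at an exact permutation adjusted p of 0.0984. The r of the fibroblast marker mean with Spry1 was 0.81 (exact permutation p = 0.00735, adjusted p = 0.0984), its rho was 0.75 (exact permutation p = 0.0255, adjusted p = 0.166), and r was 0.59 without the 2 tumours farthest from the median. With Etv4 the fibroblast marker mean had an r of 0.77 (exact permutation adjusted p = 0.0984), and 0.32 without those 2 tumours.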
